A study of Mus musculus with 21 samples.

Results

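RNA of the heart section labelled atrial was compared with RNA of the right ventricle of the same mice. The libraries were chosen by their labels: every mouse entered with its atrial and its right ventricular library, paired by mouse, which made 12 of the 21 libraries of the series and 6 mice. Nanoplastics mice 1, 3 and 4 were adult wild-type males given polystyrene nanoplastics, plastic particles of nanometre size, over 8 weeks. Control mice 1, 2 and 3 were adult wild-type males given distilled water. The strain, the dose and the exact age are not given in the labels. Nanoplastics mouse 2 was left out because its right ventricular library held 4662 counts over 1462 genes. Each library came from the RNA of a whole section, captured by its poly(A) tail and barcoded at the 5′ end, and the values are read counts per gene.

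The upper and lower chambers of the heart are built of different muscle cells. Atrial muscle cells make the atrial light chains Myl7 and Myl4, the calcium pump regulator sarcolipin (Sln) and the hormone precursor Nppa, while ventricular muscle cells make the ventricular light chains Myl2 and Myl3. Both kinds lie among fibroblasts, vessels and blood, and the great veins that enter the atria have walls of smooth muscle and elastic matrix.

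Across all genes tested, 3 transcripts passed the test between the sections. Myl9, the regulatory myosin light chain of smooth muscle, and Serpinf1, a secreted protein also known as pigment epithelium-derived factor, were higher in the atrial section, and Hbb-bt, an adult beta globin of red blood cells, was lower. Myl7 had the largest difference among the chamber markers and did not pass the test. The promoters of these 4 genes are shown because the comparison turns on them. They run from 250 bases before to 50 bases after the annotated start, 5′ to 3′ on the strand of the gene, and come from RefSeq on the mouse build GRCm38.p6. The Myl9 promoter is at chr2:156775214-156775513 (plus strand), the Serpinf1 promoter at chr11:75422574-75422873 (minus strand), the Hbb-bt promoter at chr7:103813874-103814173 (minus strand) and the Myl7 promoter at chr11:5898733-5899032 (minus strand). Capitals mark matches, on either strand, to 3 patterns: the CArG box (CCWWWWWWGG, with W for A or T), the TATA box letters TATAAA and the letters CCAAT. The CArG box is the known motif of serum response factor in muscle genes. Variants of it with other letters were not searched.
Myl9: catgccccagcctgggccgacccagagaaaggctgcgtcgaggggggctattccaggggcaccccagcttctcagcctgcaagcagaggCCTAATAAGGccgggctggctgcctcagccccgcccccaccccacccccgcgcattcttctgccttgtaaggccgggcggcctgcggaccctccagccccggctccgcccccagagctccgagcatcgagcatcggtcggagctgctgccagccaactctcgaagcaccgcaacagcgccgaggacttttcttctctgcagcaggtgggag
Serpinf1: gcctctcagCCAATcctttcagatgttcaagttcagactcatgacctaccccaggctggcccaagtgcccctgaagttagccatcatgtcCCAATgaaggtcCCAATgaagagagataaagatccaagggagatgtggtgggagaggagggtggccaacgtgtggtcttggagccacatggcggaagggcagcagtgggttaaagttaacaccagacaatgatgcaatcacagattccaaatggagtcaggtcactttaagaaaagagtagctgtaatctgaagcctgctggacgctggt
Hbb-bt: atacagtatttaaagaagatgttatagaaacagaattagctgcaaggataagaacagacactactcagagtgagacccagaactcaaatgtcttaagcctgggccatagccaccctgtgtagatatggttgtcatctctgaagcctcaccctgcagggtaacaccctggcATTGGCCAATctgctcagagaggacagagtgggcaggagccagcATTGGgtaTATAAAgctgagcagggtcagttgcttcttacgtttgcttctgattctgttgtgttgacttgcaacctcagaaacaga
Myl7: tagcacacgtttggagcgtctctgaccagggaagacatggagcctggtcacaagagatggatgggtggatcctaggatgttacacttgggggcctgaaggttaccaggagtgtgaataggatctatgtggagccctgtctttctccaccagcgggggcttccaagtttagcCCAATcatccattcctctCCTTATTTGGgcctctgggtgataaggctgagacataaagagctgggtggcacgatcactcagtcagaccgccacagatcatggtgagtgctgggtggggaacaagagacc

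The Myl9 window held 1 CArG box, CCTAATAAGG, which begins 161 bases before the start. The Myl7 window held another, CCTTATTTGG, which begins 61 bases before the start, and a CCAAT match. Of 32851 mouse promoter windows of this length, 1.63% held a CArG box. Among the 8 smooth muscle genes tested here, 7 had a window in the table and only Myl9 had an exact match to this CArG pattern in it. A window without an exact match may still hold a variant of the motif. The Hbb-bt window held TATAAA, which begins 28 bases before the start, and 3 CCAAT matches, some of which adjoin each other on opposite strands. The Serpinf1 window held 3 CCAAT matches. TATAAA was in 13.6% and CCAAT in 37.4% of all windows. A match describes the letters and is not a measured binding site.

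The atrial libraries held 841786 to 2275813 counts and the right ventricular libraries 438053 to 2042568. In the nanoplastics mice the atrial library was the deeper of the pair, and in the control mice the right ventricular library was. Total counts averaged 1223000 ± 539100 in atrial sections and 1157000 ± 671500 in right ventricles (SD, n = 6 each, exact two-sided sign-flip permutation p = 0.8125). After thinning every library to 438053 counts, 10820 ± 324 genes had a count in atrial sections and 10390 ± 459 in right ventricles, with more in the atrial section of 5 of 6 mice (exact permutation p = 0.0938, adjusted p = 0.234 over 3 library measures). The share of counts from the mitochondrial genome was 23.3 ± 4.26% in atrial sections and 27.6 ± 2.65% in right ventricles, lower in the atrial section of 5 of 6 mice (exact permutation p = 0.156, adjusted p = 0.234). The smallest p that 6 pairs allow is 0.0313.

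The label of the atrial section was checked first, with transcripts of atrial muscle. Levels are CPM, the share of a library's counts on a common scale, adjusted for composition by TMM (trimmed mean of M-values), and do not correct for gene length. Myl7 was at 14740, 3.55 and 1505 CPM in the atrial sections of nanoplastics mice 1, 3 and 4, and at 9.71, 84.6 and 27.8 CPM in those of control mice 1, 2 and 3. In the right ventricles it was at 4.81, 1.37 and 38.2 CPM in the nanoplastics mice and at 2.78, 3.12 and 5.21 CPM in the control mice. It was higher in the atrial section of every mouse, but the atrial values of 4 mice were below 100 CPM and the sections overlapped. In nanoplastics mouse 3 the direction rested on 3 counts in the atrial section and 1 in the right ventricle. In control mouse 1 it rested on 11 and 6 counts. The log2 difference, atrial section over right ventricle, was 6.34 ± 1.35 (SE), with an adjusted p of 0.430 by edgeR's quasi-likelihood test. Without nanoplastics mouse 1 it was 4.26 (adjusted p = 0.0180). In the control mice alone, a fit added after the data were seen, it was 3.35 (adjusted p = 0.000239). Myl7 was not called in the other alternatives in which it was tested. Its adjusted p was 0.168 by DESeq2, 0.637 by limma voom, 0.852 without nanoplastics mouse 3 and 0.707 without control mouse 1.

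Sarcolipin and Myl4, like Myl7, were highest in the atrial sections of nanoplastics mice 1 and 4 and control mouse 2. Sln was at 21540, 1.19 and 1367 CPM in the atrial sections of nanoplastics mice 1, 3 and 4 and at 7.06, 124 and 8.81 CPM in those of the control mice, against 1.85 to 50.9 CPM in right ventricles. Myl4 was at 4295, 5.92 and 329 CPM in the nanoplastics and 1.77, 50.3 and 9.48 CPM in the control atrial sections, against up to 22.9 CPM in right ventricles. Neither had enough counts in enough libraries to enter the test. Summed over Myl7, Myl4 and Sln, the atrial sections held 40580, 10.7 and 3201 CPM in the nanoplastics mice and 18.5, 259 and 46.1 CPM in the control mice, while the right ventricles held 5.50 to 112 CPM. The sum was higher in the atrial section than in the right ventricle of all 6 mice. In nanoplastics mouse 3 few counts lay behind it. Myl7, Myl4 and Sln had 3, 5 and 1 counts in its atrial section and 1, 1 and 2 in its right ventricle. In 3 of the 6 atrial sections, those of nanoplastics mouse 3 and control mice 1 and 3, the sum was below that in the right ventricle of nanoplastics mouse 4. The wider list held 18 atrial muscle genes, of which 6 were tested and 0 were called. Their median log2 difference was 0.51, beside 0.01 over all genes tested. Summed over that list, the atrial section was above the right ventricle in nanoplastics mice 1 and 4 and control mice 2 and 3. It was below in nanoplastics mouse 3 (201.4 against 695.4 CPM) and control mouse 1 (398.8 against 456.5 CPM). The level of atrial muscle markers thus differed widely among the atrial sections, and the section is named here by its label.

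Nppa, the precursor of atrial natriuretic peptide, was at 25910 CPM in the atrial section of nanoplastics mouse 1 and between 20.1 and 302 CPM in the other 5, against 107 to 520 CPM in right ventricles (log2 difference 0.20 ± 1.37, adjusted p = 0.997). Its direction turned without that mouse, to a log2 difference of -0.55, and without control mouse 2, to -0.18. Nppa was higher in the atrial section of 3 mice and lower in that of 3. Bmp10, a growth factor of the adult atrium, had no count in any of the 6 atrial libraries, where a count of 0 allows up to 1.32 to 3.56 CPM by depth (3 counts, counting error only). Kcnj3 and Kcnj5 encode the subunits of the acetylcholine-activated potassium channel. Kcnj3 was at 16.3 to 27.2 CPM in atrial sections and 9.63 to 20.4 CPM in right ventricles, higher in the atrial section of all 6 mice (log2 0.69 ± 0.21, adjusted p = 0.336). Kcnj5, chosen after its values were seen, was at 13.6, 16.6, 16.1, 18.5, 15.9 and 16.9 CPM in the atrial sections of nanoplastics mice 1, 3 and 4 and control mice 1, 2 and 3. In their right ventricles, in the same order, it was at 4.81, 4.12, 5.09, 13.9, 8.83 and 5.86 CPM (log2 1.07 ± 0.26, adjusted p = 0.177). The atrial values of Kcnj5 were alike across mice, unlike those of Myl7, and only control mouse 1 had a right ventricular value in their range. The right ventricular values of nanoplastics mice 1, 3 and 4 rested on 2, 3 and 2 counts, so their distance from that range is uncertain.

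The ventricular light chains were abundant in the section labelled atrial too. Myl2 averaged 9925 ± 2033 CPM in atrial sections and 10670 ± 4119 CPM in right ventricles, and Myl3 averaged 8087 ± 1755 and 8475 ± 1089 CPM in atrial sections and right ventricles (SD, n = 6 each). The log2 differences were -0.03 ± 0.14 for Myl2 (adjusted p = 0.987) and -0.08 ± 0.09 for Myl3 (adjusted p = 0.928), and both signs turned with library totals in place of TMM. The ventricular transcription factor Irx4 was at 0 to 10.6 CPM in atrial sections and 1.95 to 5.09 CPM in right ventricles, and its partner in ventricular identity Hey2 was below 3 CPM throughout. Neither was tested. Of the 12 pacemaker and conduction genes listed, 11 were in the table and 0 had enough counts to be tested. Hcn4, the pacemaker channel, was at 0 to 1.77 CPM in atrial sections and 0 to 0.651 CPM in right ventricles. Gja5, the connexin of atrial muscle and the conduction system, was highest at 4.95 CPM in the atrial section of nanoplastics mouse 1.

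**Figure D1:**
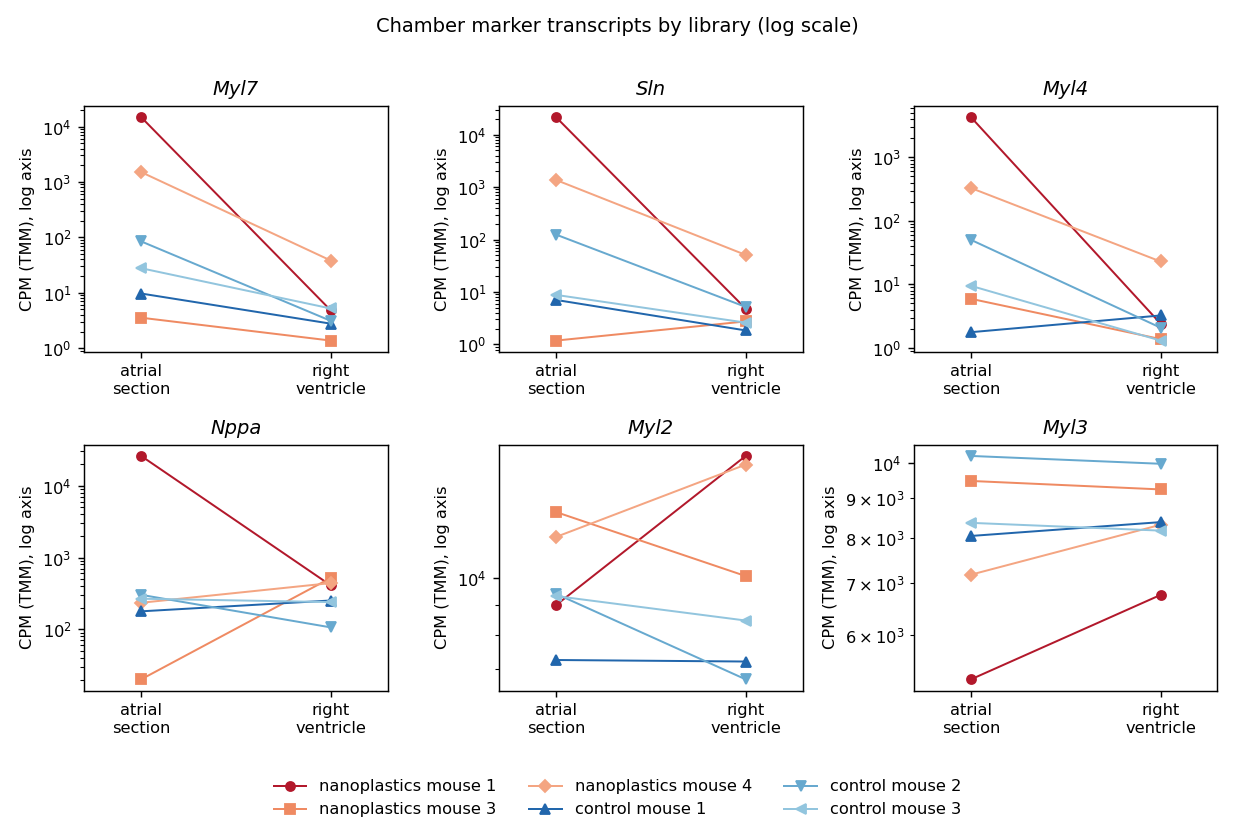
Levels of the atrial transcripts Myl7, Sln, Myl4 and Nppa and of the ventricular light chains Myl2 and Myl3, in TMM-scaled CPM on a log axis. Each line joins the atrial section (left) and the right ventricle (right) of 1 mouse; nanoplastics mouse 1 stands highest in the atrial section for all 4 atrial transcripts, while Myl2 and Myl3 lie in the same range in both sections.

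Of 5072 genes tested in the paired comparison, 3 (0.0591%) had an adjusted p under 0.05. Of these, 2 (0.0394%) were higher in the atrial section and 1 (0.0197%) was lower. At an unadjusted p under 0.05 there were 195 higher genes (3.84%) and 130 lower genes (2.56%). The median log2 difference over all tested genes was 0.01. The direction was the same in all 6 mice for 99 higher genes (1.95%) and 108 lower genes (2.13%). In simulated counts of these 5072 genes at the same depths, 86% of genes with 2-fold changes and 83% of those with 4-fold changes were called. Each of these genes was given the same fold in all 6 mice. Whether genes whose difference varies among mice would be called as often was not tested.

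Myl9 was at 58.1, 78.2 and 37.9 CPM in the atrial sections of nanoplastics mice 1, 3 and 4 and at 181, 31.7 and 9.48 CPM in those of control mice 1, 2 and 3. In the right ventricles it was at 14.4, 30.2 and 17.8 CPM in the nanoplastics mice and 35.1, 14.6 and 9.77 CPM in the control mice. It was higher in the atrial section of 5 mice, most in control mouse 1, and about level in control mouse 3, and the sections overlapped. Its log2 difference was 1.56 ± 0.23 (adjusted p = 0.00201). Without control mouse 1 the log2 difference was 1.14 and the call was lost (adjusted p = 0.198). In a bulk section, fewer cells of a type and less RNA per cell cannot be told apart.

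Serpinf1 was at 24.7, 40.3 and 17.5 CPM in the atrial sections of nanoplastics mice 1, 3 and 4 and at 33.5, 19.4 and 34.5 CPM in those of the control mice. Its right ventricular levels were 16.9, 15.1 and 12.7 CPM in the nanoplastics mice and 10.6, 10.9 and 17.6 CPM in the control mice. It was higher in the atrial section of all 6 mice, and the lowest atrial value lay just below the highest right ventricular one. The log2 difference was 1.09 ± 0.21 (adjusted p = 0.0387). The call was lost when nanoplastics mouse 3 (adjusted p = 0.238), control mouse 1 (0.491), control mouse 2 (0.0655) or control mouse 3 (0.0662) was left out, with log2 differences of 0.92 to 1.15. DESeq2 (adjusted p = 0.179) and limma voom (adjusted p = 0.0630) did not call it either.

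Hbb-bt was at 38.3, 21.3 and 51.2 CPM in the atrial sections of nanoplastics mice 1, 3 and 4 and at 12.3, 104.9 and 18.3 CPM in those of the control mice. In the right ventricles it was at 110.7, 141.6 and 168 CPM in the nanoplastics mice and 29.1, 170.9 and 41.7 CPM in the control mice. It was lower in the atrial section of all 6 mice, although mice differed enough for the sections to overlap. The log2 difference was -1.43 ± 0.19 (adjusted p = 0.000927), and it was called without any 1 of the mice. After thinning every library to 438053 counts the call was lost (log2 -1.23, adjusted p = 0.169). It was also lost without the mouse in the fit and in 1 fit over 3 sections. Without any 1 of the mice the log2 difference ran between -1.69 and -1.22. The difference was -1.92 in the nanoplastics mice alone and -0.93 in the control mice alone, and the test of that difference gave a log2 of -0.99 ± 0.32 with an adjusted p of 0.998.

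**Figure D2:**
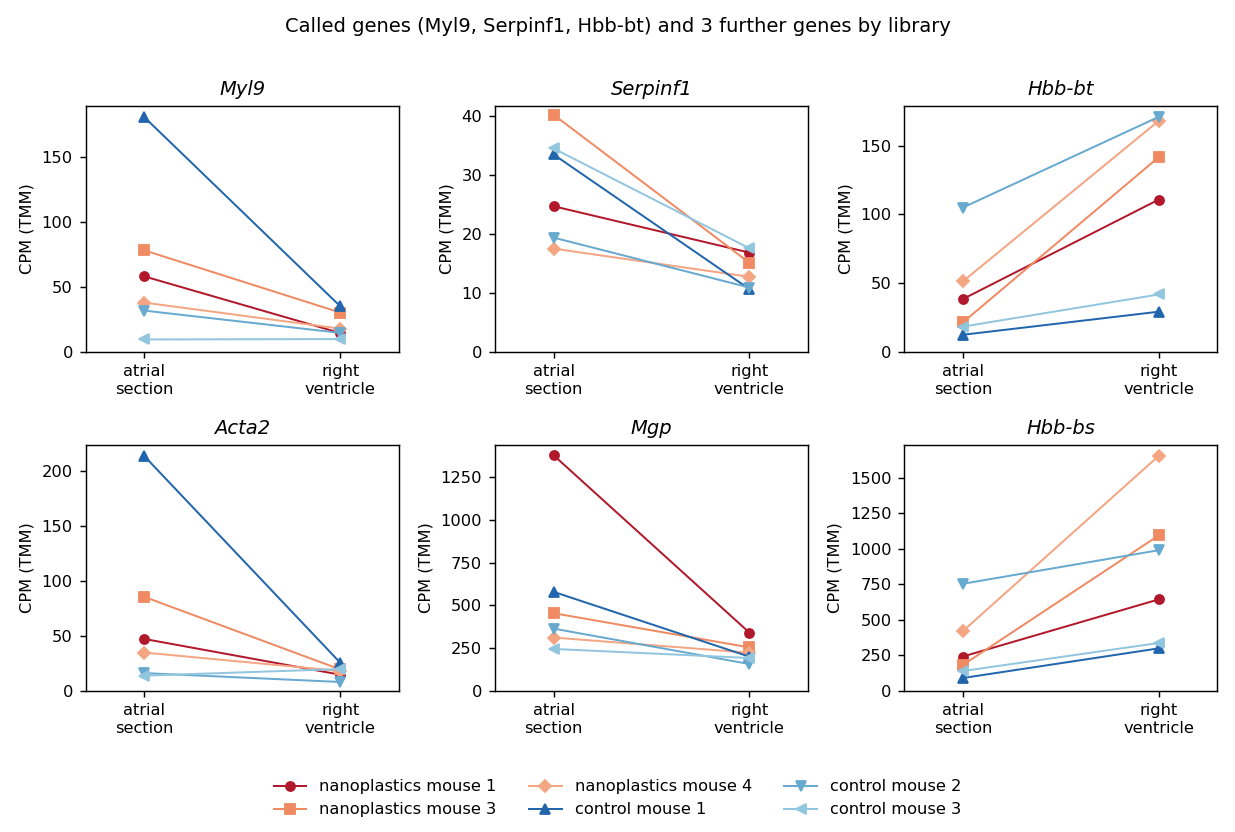
Levels of the called genes Myl9, Serpinf1 and Hbb-bt and of Acta2, Mgp and Hbb-bs, which were not called, in TMM-scaled CPM. Each line joins the atrial section (left) and the right ventricle (right) of 1 mouse; Serpinf1 and Mgp lie higher and both globins lower in the atrial section of all 6 mice, and control mouse 1 has the highest atrial Myl9 and Acta2.

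The sections did not overlap for 5 tested genes with every atrial value above the right ventricular ones (0.0986%) and for 4 with every atrial value below (0.0789%). These 9 were named after their values were seen, and 0 of them passed the test. Above were Nptn, Zfp36l1, Gpn3, Eps15 and Yipf1. Nptn, a cell adhesion protein that accompanies calcium pumps, was at 42.7 to 53.2 CPM in atrial sections and 24.7 to 35.2 CPM in right ventricles (log2 0.55 ± 0.16, adjusted p = 0.282). Below were Sdhaf3, Rtn4ip1, Atg10 and Crybg3. Sdhaf3, an assembly factor of the respiratory enzyme succinate dehydrogenase, was at 33.2 to 39.6 CPM in atrial sections and 41.6 to 60.2 CPM in right ventricles (log2 -0.44 ± 0.15, adjusted p = 0.526). Rtn4ip1, a mitochondrial protein, was at 3.71 to 12.2 CPM in atrial sections and 12.5 to 28.9 CPM in right ventricles (log2 -0.75 ± 0.26, adjusted p = 0.526).

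**Figure D3:**
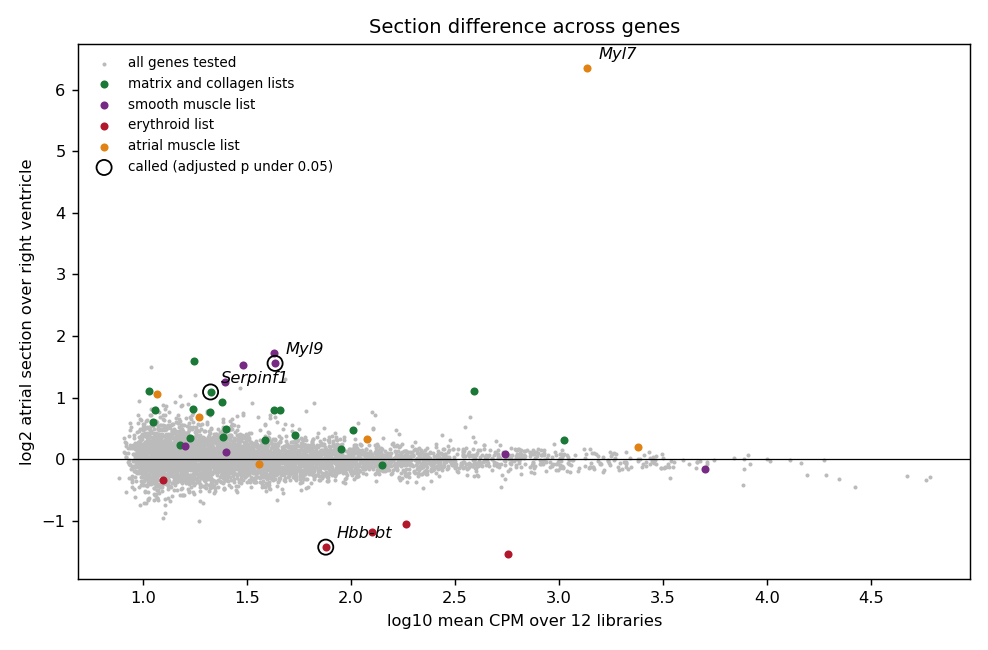
Log2 difference, atrial section over right ventricle, of each tested gene against the log10 of its mean CPM over the 12 libraries. Rings mark the 3 called genes; Myl7 stands far above all other points without passing the test, the erythroid list lies below 0, and most matrix and smooth muscle genes lie above 0.

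Gene lists of cell types and pathways place these transcripts. The 39 lists held 613 genes, of which 339 were tested and 3 were called. The smooth muscle list had 14 genes in the table, of which 8 were tested, 1 was called higher (Myl9) and 7 did not pass. Their median log2 difference was 0.73, beside 0.01 over all genes tested. Acta2, smooth muscle actin, was at 47.0, 85.3 and 34.6 CPM in the atrial sections of the nanoplastics mice and at 213, 15.9 and 13.6 CPM in those of the control mice, against 14.4, 19.2 and 17.8 CPM in the nanoplastics and 25.4, 7.79 and 19.5 CPM in the control right ventricles. Its log2 difference was 1.73 ± 0.51 (adjusted p = 0.673). Tagln, the actin-binding protein transgelin, was at 6.77 to 141 CPM in atrial sections and 7.64 to 20.6 CPM in right ventricles (log2 1.52 ± 0.56, adjusted p = 0.727). Tpm2, a tropomyosin, was at 12.2 to 86.5 CPM in atrial sections and 7.22 to 20.6 CPM in right ventricles, higher in the atrial section of all 6 mice (log2 1.25 ± 0.30, adjusted p = 0.199). Control mouse 1 had the highest atrial value of Acta2, Tagln and Tpm2, and control mouse 3 the lowest. Tagln and Tpm2, like Kcnj5, were chosen after their values were seen.

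Myh11, the smooth muscle myosin heavy chain, had too few counts to be tested. It was at 52.9 CPM in the atrial section of control mouse 1, at 21.3 CPM in that of nanoplastics mouse 3 and at 1.36 to 7.11 CPM in the other 4, against 0 to 7.22 CPM in right ventricles. Adipoq, made by fat cells, was also highest in the atrial section of control mouse 1, at 22.9 CPM. The other atrial sections reached up to 4.74 CPM and the right ventricles up to 0.463 CPM. Summed over the whole smooth muscle list the sections did not stand apart, at 5010 to 6070 CPM in atrial sections and 5595 to 7580 CPM in right ventricles. Heart muscle also makes Pln, the phospholamban of that list, which was at 4331 to 5302 CPM in atrial sections and 4852 to 7055 CPM in right ventricles. The part of fat or of vessel wall in the Myl9 result was not tested beyond leaving out control mouse 1.

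Of 33 listed matrix proteins 18 were tested. Only Serpinf1 was called, 17 of the 18 had a positive log2 difference, and their median was 0.69. At an unadjusted p under 0.05 there were 12 higher and 0 lower members, where 3.84% of all tested genes were higher. Mgp, an inhibitor of calcification in vessels and cartilage, was at 1380, 454 and 311 CPM in the atrial sections of the nanoplastics mice and at 579, 363 and 244 CPM in those of the control mice. In the right ventricles it was at 339, 253 and 222 CPM in the nanoplastics mice and 198, 155 and 191 CPM in the control mice. It was higher in the atrial section of all 6 mice without passing the test (log2 1.11 ± 0.21, adjusted p = 0.178); DESeq2 called it, with an adjusted p of 4.5e-06. Ltbp4, which binds latent transforming growth factor beta in elastic fibres, was at 8.82 to 65.5 CPM in atrial sections and 4.81 to 15.3 CPM in right ventricles (log2 1.59 ± 0.32, adjusted p = 0.0612). Timp3, an inhibitor of matrix proteases, was at 34.4 to 90.9 CPM in atrial sections and 22.3 to 43.3 CPM in right ventricles (log2 0.81 ± 0.18, adjusted p = 0.110). Col1a2, a chain of type I collagen, was at 14.2 to 55.6 CPM in atrial sections and 10.9 to 38.2 CPM in right ventricles (log2 0.93 ± 0.25, adjusted p = 0.249). Its partner chain Col1a1 was at 1.36 to 22.3 CPM in atrial sections and 0 to 7.64 CPM in right ventricles and was not tested. Mgp, Ltbp4, Timp3 and Col1a2 were chosen after their values were seen.

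The fibroblast, complement and secreted signal lists had positive medians, with 0 members called. All 11 tested fibroblast genes had a positive log2 difference, with a median of 0.34. Dcn, the proteoglycan decorin, averaged 1174 ± 306 CPM in atrial sections and 941 ± 192 CPM in right ventricles (SD, n = 6 each; log2 0.31 ± 0.11, adjusted p = 0.517). The summed fibroblast list ran between 1581 and 3085 CPM in atrial sections and between 1329 and 2140 CPM in right ventricles. Of 7 tested complement genes 6 were positive, with a median of 0.50. C3, the central complement protein, was at 34.5 to 132 CPM in atrial sections and 28.9 to 76.4 CPM in right ventricles (log2 0.79 ± 0.25, adjusted p = 0.517), and was chosen after its values were seen. Of 13 tested secreted signal genes 11 were positive, with a median of 0.52.

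The medians of these lists varied among the mice. Within a mouse, the median log2 difference of the matrix list was 1.12, 0.41 and -0.30 in nanoplastics mice 1, 3 and 4 and 0.87, 0.61 and 0.30 in control mice 1, 2 and 3. The fibroblast list was at 1.15, 0.08 and -0.31 in the nanoplastics mice and 0.74, 0.48 and 0.08 in the control mice. Nanoplastics mouse 4 alone had negative medians, and the same held for the complement list (-0.30) and the secreted signals (-0.25). Its right ventricular library was the shallowest of the 12, its atrial library the deepest, and the part of depth in these medians was not tested. Leaving this mouse out brought the number of called genes to 39, of which 32 were higher and 7 lower. In that fit 0.621% of 5151 tested genes were called higher, and 6 of 17 tested matrix proteins and 2 of 7 complement genes were among them. The mouse left out was the one with negative medians in these lists, so these counts are no separate support for their direction.

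**Figure D4:**
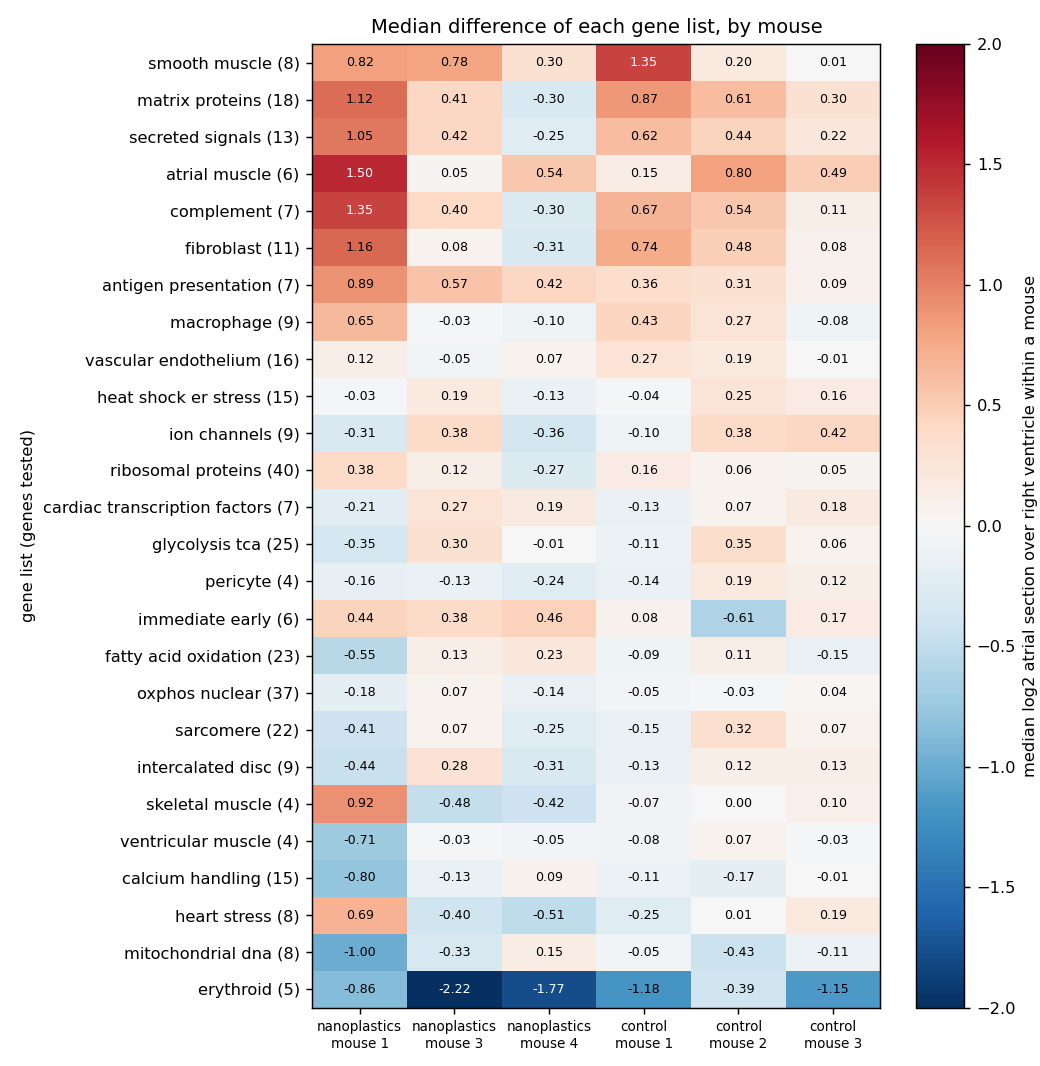
Median within-mouse log2 difference, atrial section over right ventricle, of every list with at least 4 tested genes, with nanoplastics mice left of control mice. Red is higher and blue is lower in the atrial section; the erythroid list is negative in all 6 mice, and the matrix, fibroblast and complement lists are negative only in nanoplastics mouse 4.

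Over the 6 mice together, the 5 tested red blood cell transcripts pointed down in the atrial section. Of 9 erythroid genes, 5 were tested, 1 was called lower (Hbb-bt), and the other 4 did not pass although all had a negative log2 difference. The median was -1.17. Hbb-bs, the neighbouring beta globin, was at 240, 180 and 419 CPM in the atrial sections of the nanoplastics mice and at 88.2, 753 and 138 CPM in those of the control mice. In the right ventricles it was at 643, 1094 and 1655 CPM in the nanoplastics mice and 297, 990 and 335 CPM in the control mice. It was lower in the atrial section of all 6 mice (log2 -1.54 ± 0.29, adjusted p = 0.259), and DESeq2 called it (log2 -1.56, adjusted p = 0.000219). The alpha globins Hba-a1 and Hba-a2 had log2 differences of -1.04 ± 0.32 and -1.17 ± 0.38 (adjusted p = 0.697 for both) and were higher in the atrial section of control mouse 2 than in its right ventricle. Slc4a1, the anion exchanger of the red cell membrane, had no count in any atrial library. Hbb-bs, Hba-a1 and Hba-a2 were chosen after their values were seen. Globin genes are near-identical copies, and the sources used here do not say how reads that match several of them were assigned, so single globins are uncertain. Their summed level was 465, 286 and 807 CPM in the atrial sections of the nanoplastics mice and 140, 1279 and 251 CPM in those of the control mice, against 1040, 1600 and 3032 CPM in the nanoplastics and 437, 1527 and 591 CPM in the control right ventricles, lower in the atrial section of every mouse. The part of blood left in the sections was not tested.

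Heart muscle programmes showed 0 called genes. All 22 tested sarcomere genes, 37 nuclear respiratory chain genes, 23 fatty acid oxidation genes, 25 glycolysis and citric acid cycle genes and 9 ion channel genes failed to pass the test, with medians between -0.03 and 0.10. Myh6 and Myh7, the alpha and beta myosin heavy chains, averaged 2707 ± 769 and 60.9 ± 32.6 CPM in atrial sections and 2697 ± 1588 and 53.8 ± 28.3 CPM in right ventricles (SD, n = 6 each). The 15 tested calcium handling genes had a median of -0.15, and 2 of them were lower in the atrial section of all 6 mice. Trdn, the junctional protein triadin, was at 850 to 1470 CPM in atrial sections and 972 to 1517 CPM in right ventricles (log2 -0.20 ± 0.09, adjusted p = 0.727). Cacnb2, a subunit of the L-type calcium channel, was at 2.37 to 14.2 CPM in atrial sections and 9.63 to 25.5 CPM in right ventricles (log2 -0.88 ± 0.25, adjusted p = 0.258). Gja1, a gap junction protein of heart muscle, had a log2 difference of -0.03 ± 0.13 (adjusted p = 0.981). Nppb, a stress-induced natriuretic peptide, was at 128 to 950 CPM in atrial sections and 356 to 844 CPM in right ventricles (log2 -0.45 ± 0.47, adjusted p = 0.921). Trdn and Cacnb2 were chosen after their values were seen.

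The 8 tested genes of the mitochondrial genome all had a negative log2 difference, with a median of -0.28, and 0 passed. The 40 tested ribosomal protein genes had a median of 0.09, with 37 positive and 0 called. Antigen presentation genes had 7 of 7 positive differences, a median of 0.32 and 0 calls. H2-Eb1, a class II histocompatibility chain, was at 44.1 to 129 CPM in atrial sections and 34.2 to 86.8 CPM in right ventricles, higher in the atrial section of all 6 mice (log2 0.43 ± 0.13, adjusted p = 0.341, chosen after its values were seen). Pecam1, of the vessel lining, was at 33.2 to 49.5 CPM in atrial sections and 19.3 to 50.8 CPM in right ventricles (log2 0.27 ± 0.18, adjusted p = 0.847). The list of 16 tested endothelial genes had a median of 0.16, the 9 macrophage genes one of 0.23, and 0 of either were called. Msln, a marker of the outer heart lining, was at 0 to 7.06 CPM in atrial sections and 0 to 1.37 CPM in right ventricles.

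Whether the difference between the sections depended on nanoplastics was tested as an interaction over the same 12 libraries. By edgeR, 0 of 5072 genes (0%) were called, 212 (4.18%) had an unadjusted p under 0.05, and DESeq2 called 0 (59 unadjusted). The smallest adjusted p was 0.577. In the simulation 31% of 2-fold and 81% of 4-fold interactions were called, so differences near the smaller size would mostly be missed. Each simulated interaction was likewise of the same size in all nanoplastics mice. The 6 genes with the smallest p were Xirp2, Gm42418, H2-Aa, Ccl8, Matr3 and Scgb1c1. Xirp2, an actin-binding protein of the intercalated disc, had within-mouse log2 differences of -1.05, -0.63 and -0.72 in nanoplastics mice and -0.12, 0.27 and 0.47 in control mice (interaction -0.99 ± 0.22, adjusted p = 0.577). H2-Aa, a class II histocompatibility chain, had 0.89, 1.12 and 0.81 in nanoplastics mice and -0.33, 0.09 and -0.31 in control mice (interaction 1.12 ± 0.27, adjusted p = 0.760). Ccl8, a chemokine of macrophages, had 1.63, 1.51 and 0.90 in nanoplastics mice and -0.13, 0.02 and 0.19 in control mice (interaction 1.42 ± 0.37, adjusted p = 0.777). In all 3 the treatments did not overlap, and these genes are the extremes of 5072. Myl9 and Serpinf1 had interactions of -0.14 ± 0.49 and -0.22 ± 0.46 (adjusted p = 0.998 for both).

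The left ventricle of the same 6 mice was used to ask whether the atrial section differed otherwise from the right than from the left ventricle. The left ventricular library of nanoplastics mouse 4 held 823.7 CPM of Myl7, 626.4 CPM of Sln and 243 CPM of Myl4. Each was above its level in the atrial sections of nanoplastics mouse 3 and all control mice. In the other left ventricles Myl7 was at 2.083 to 23.15 CPM. The left ventricle is therefore also named by its label. The difference between atrial section over right ventricle and atrial section over left ventricle equals left over right ventricle, where edgeR called 0 of 5382 genes (0%; 270, 5.02%, at an unadjusted p under 0.05; DESeq2 called 0, with 85 unadjusted). Myl9 averaged 23.9 ± 5.59 CPM in left ventricles and 20.3 ± 10.04 CPM in right ventricles (SD, n = 6 each; log2 0.15, adjusted p = 0.994), and Serpinf1 15.6 ± 7.83 CPM in left ventricles and 14.0 ± 2.99 CPM in right ventricles (log2 0.12, adjusted p = 0.994). Hbb-bt averaged 73.9 ± 43.7 CPM in left ventricles and 110.3 ± 62.1 CPM in right ventricles (log2 -0.74, adjusted p = 0.938). Its atrial mean of 41.1 ± 34.4 CPM was the lowest of the 3 sections. By mouse, the atrial level was the lowest in all nanoplastics mice and in control mouse 3. In control mouse 1 the left ventricle was lower, at 10.08 CPM against 12.35 CPM in the atrial section. The same held in the remaining control mouse, at 57.19 CPM against 104.9 CPM.

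The number of called genes moved with the processing while the 3 genes kept their direction. Hbb-bt was called in 16 of 19 alternatives, Myl9 in 15 of 19 and Serpinf1 in 9 of 18. Without the mouse in the fit 0 genes were called, with 232 at an unadjusted p under 0.05.

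**Figure D5:**
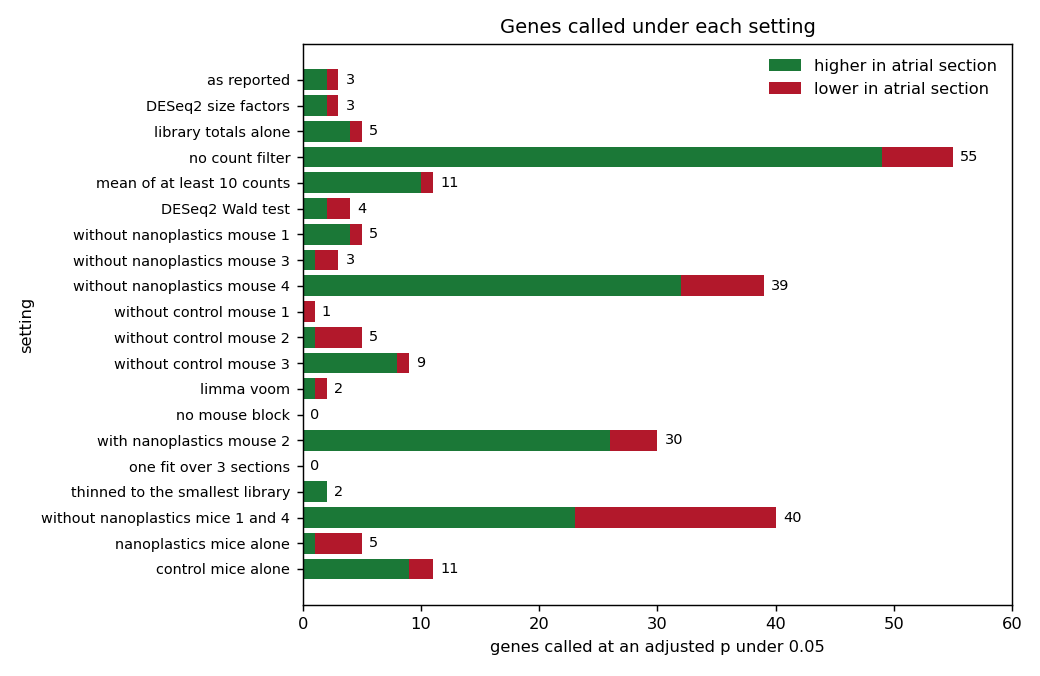
Number of genes called at an adjusted p under 0.05 in the paired comparison under each setting, split into genes higher and lower in the atrial section. The reported setting called 3 genes, the lowest count was 0 (no mouse block, and 1 fit over 3 sections) and the highest 55 (no count filter).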

How the data were processed

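Hearts were perfused and cut into sections, RNA was extracted with TRIZOL, and poly(A) RNA was made into libraries with the Singleron AccuraCode kit, which pools barcoded wells before amplification, per the labels' protocols. The authors deposited raw counts per gene symbol in 1 table of 20960 genes and 21 libraries. The submitters' processing notes name STAR; not given in the sources used here are the build, the annotation, the counter, the strand setting and whether molecular identifiers were counted. Copies from amplification may therefore be counted as separate reads, and overlapping and antisense genes are uncertain. None of the 66 library pairs was identical, and the smallest chi-square per degree of freedom was 2.321.

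The deposited counts were tested with edgeR 4.0.16 in R 4.3.3 (filterByExpr, TMM, robust quasi-likelihood test, Benjamini-Hochberg over all genes tested, calls at an adjusted p under 0.05), with mouse and section as terms. limma 3.58.1 and DESeq2 1.42.0 were alternatives. Adjusted p-values are edgeR's unless another tool is named. Paired sections are from 1 animal by their labels, and their deviations from the section means correlated at 0.105 to 0.394. Within-mouse log2 differences add 1 CPM. Library measures used all 64 sign flips. Steps were tested on simulated counts.

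The members and lists were chosen with earlier results of these data known. Named genes are called genes with a mean count of 10 or more and 1 direction in 6 mice, up to 10 per direction by size and without genes named only by number, which gave Serpinf1 and Hbb-bt; up to 4 called members per list, which added Myl9; 24 fixed chamber, stress and cell type genes; and the 6 smallest interaction p. Genes outside the rule are marked where they appear. The mice are separate animals, each with 1 library per section. Promoters were matched by symbol, and the 4 printed ones all had an entry.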

Additional observations from a re-analysis of the deposited data

Results flagged for a closer look

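Dixon's test was run on 44 groups of 6 within-mouse differences, those of named genes and of the 3 library measures. In 2 of these groups, both of genes, 1 mouse lay far from the others, about the number chance gives (1 in 20). Cacnb2, a subunit of the L-type calcium channel, had a log2 difference, atrial section minus right ventricle, of -1.988 in nanoplastics mouse 3, while the other 5 mice ran between -0.84 and -0.64. H2-Ab1, a class II histocompatibility chain, had 1.906 in nanoplastics mouse 1, while the other 5 ran between 0.09 and 0.62. Both genes keep their direction in all 6 mice, and both were chosen after their values were seen.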

How the results depend on the processing

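The 3 called genes kept their direction under every alternative in which they were tested; of 827 values of named genes, 20 changed sign. In the paired comparison 3 genes were called with TMM and with DESeq2 size factors, against 5 with library totals (all-gene median log2 0.0778), 55 without a count filter (19475 genes), 11 at a mean of at least 10 counts, 4 by DESeq2, 2 by limma voom and 2 after thinning. With nanoplastics mouse 2 there were 30. With no replicate block 0 were called and in 1 fit over 3 sections 0 (372 at an unadjusted p under 0.05). Alternatives added after the data were seen called 40 without nanoplastics mice 1 and 4, 5 in nanoplastics mice alone and 11 in control mice alone. Leaving out 1 mouse gave 1 to 39: 5 without nanoplastics mouse 1, 3 without mouse 3, 39 without mouse 4, and 1, 5 and 9 without control mice 1, 2 and 3. The cause was not tested. The interaction had 1 call without a count filter (Gm42418, all-gene median 0.184). Left over right ventricle had 2 without a filter (Hbb-bt and Myl4), and 0 to 1 when a mouse was left out, with 1 (Cenpf) without control mouse 2.

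Signs that turned were those of genes that were not called. Nppa went to -0.42 without nanoplastics mice 1 and 4 and to -0.35 in nanoplastics mice alone (-0.55 to 0.88 with 1 mouse left out). Myl2 was at 0.057 with library totals, 0.17 with nanoplastics mouse 2, 0.24 without nanoplastics mice 1 and 4 and 0.20 in control mice alone (-0.13 to 0.12 with 1 mouse left out). Myl3 was at 0.011 with library totals, 0.070 with nanoplastics mouse 2 and 0.0012 without nanoplastics mice 1 and 4. In nanoplastics mice alone Myh6 was at -0.12 and Myh7 at -0.30, and Myh6 ran from -0.020 to 0.28 with 1 mouse left out. Pln was at 0.0020 with nanoplastics mouse 2. Gja1 was at 0.037 with library totals and between -0.095 and 0.037 with 1 mouse left out. The difference in total count ran from -288900 (without nanoplastics mouse 4) to 276500.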

Other observations

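Of the 20 genes with the smallest unadjusted p, 10 were in no gene list. Of these, 7 were higher and 3 lower in the atrial section, and 0 passed edgeR's test. Nupr1, a stress-induced nuclear protein, averaged 41.1 ± 27.2 CPM in atrial sections and 17.6 ± 6.05 CPM in right ventricles (SD, n = 6 each), higher in the atrial section of all 6 mice (log2 1.15 ± 0.24, adjusted p = 0.0612). Nup37, a component of the nuclear pore, averaged 8.53 ± 2.99 CPM in atrial sections and 16.3 ± 4.41 CPM in right ventricles, lower in the atrial section of all 6 mice (log2 -0.95 ± 0.25, adjusted p = 0.217). The predicted gene Gm44608 averaged 12.3 ± 4.22 CPM in atrial sections and 24.7 ± 7.48 CPM in right ventricles, lower in all 6 mice (log2 -1.01 ± 0.23, adjusted p = 0.110). The predicted gene Gm49708 averaged 186 ± 52.7 CPM in atrial sections and 257 ± 59.4 CPM in right ventricles, lower in 5 of 6 mice (log2 -0.46 ± 0.12, adjusted p = 0.217). These 4 genes were chosen after their values were seen.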
